A study of Mus musculus with 4 samples.

Results

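Colon RNA of mice given ginger extract together with trinitrobenzene sulfonic acid (TNBS) was compared with colon RNA of mice given TNBS alone. The comparison rests on 1 array per side, the ginger array and the TNBS array, each carrying 29922 probes, of which 21020 have 1 gene symbol and stand for 16637 named genes. A gene was taken as measured where its intensity, averaged on the log2 scale over its probes, was no lower than the median named probe of the TNBS array (269) or of the ginger array (270.2). That left 9338 of the 16637 named genes, and all differences are log2 intensity on the ginger array minus log2 intensity on the TNBS array. The study kept 24 female mice in 4 groups of 6, and colons were collected on day 7. Mock mice received 0.1 ml of 50% ethanol without TNBS. TNBS mice received 250 mg/kg TNBS in that vehicle, ginger mice the same TNBS dose mixed with ginger extract, and zingerone mice the same TNBS dose mixed with zingerone, so ethanol was common to all 4 groups and extract and hapten were given in 1 mixture. The strain label reads BALB/c for the mock array and BALC/c for the other 3, and no group received ginger extract without TNBS. The amount of extract is given only as various, and the labels do not tell if single or pooled animals gave the hybridised RNA. With 1 array per group there is no replicate error and no test, and every value is only as precise as a single hybridisation.

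TNBS is a hapten that binds tissue proteins, and with ethanol, which breaches the mucus and epithelial barrier, it provokes an ulcerating colitis in rodents. In such tissue, macrophages and epithelial cells that sense microbes through NF-kB make IL-1, IL-6 and chemokines, neutrophils and monocytes enter, and the surface colonocytes and mucus-filled goblet cells that normally line the colon are lost or renewed from the crypts. Ginger rhizome holds pungent phenols, among them gingerols, shogaols and zingerone, and the extract is a mixture of many compounds.

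The epithelial adhesion gene Epcam had an intensity of 23353 on the mock, 16459.7 on the TNBS, 23979.5 on the ginger and 23730 on the zingerone array, and the keratin gene Krt8 36534 on the mock, 48876 on the TNBS, 47587 on the ginger and 54949 on the zingerone array. Over the 5 epithelial markers (Epcam, Krt8, Cdh1, Vil1 and Cdx2) the summed intensity was 75542 on TNBS and 84617 on ginger, and over 4 smooth muscle markers 14746 and 13831. Markers of neighbouring tissues were lower in sum on ginger for the 12 skeletal muscle genes on the array (4079 and 3714) and the 3 red blood cell genes (1547 and 1215), and higher for the 9 exocrine pancreas genes (11225 and 12997) and the 10 small intestine genes (2742 and 4173). In the small intestine sum Fabp2, which also belongs to the absorptive colonocyte list below, read 397 on TNBS and 1287 on ginger. Fabp1 went the other way, at 325 and 190. The 16 adipocyte genes on the array summed to 71473 on TNBS and 22215 on ginger. Much of both sums came from Fabp4 (45906 and 9969) and Cfd (16128 and 4804). In a bulk sample fewer cells of a type and less RNA per cell cannot be told apart.

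Across the measured genes the ginger and TNBS arrays were close. The median difference was 0.01, with quartiles of -0.20 and 0.24, and 8109 genes (86.8%) lay within 1.5-fold. A total of 127 genes were at least 2-fold higher on the ginger array (1.36%) and 242 were at least 2-fold lower (2.59%), 369 in all (3.95%), and these are called higher and lower from here on. Without that threshold, 51.4% of the measured genes lay above the TNBS value and 48.5% under it. At 4-fold or more there were 6 higher and 40 lower genes, and at 5-fold or more 4 and 18. On the TNBS array the lower genes were the brighter set, an order that follows in part from how they were called. Their median intensity was 1838 on TNBS and 656.9 on ginger, whereas the higher genes had medians of 523.8 and 1287. Among the 164 genes with a mean intensity of 8192 or more, 14% were lower and 3.05% higher, against 0.943% and 0.738% of the genes under 512. Probes of the same gene give the only view of measurement spread, since 1107 genes had several probes above the median. The pooled SD between probes of a gene was 0.33 on the log2 scale, which covers disagreement between probes on these arrays and no variation between animals. Of 14 called genes with several such probes, all probes shared a sign in 14 and passed 2-fold in 6. Of the 369 called genes 352 have a single probe. In the gene lists below, counts and medians cover the measured members, and where the median of all members on the array lay over 1.5 times and at least 0.1 away, it is given as well. A gene that entered through a high value on 1 of the arrays alone more readily shows a difference, so these counts are a description.

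**Figure D1:**
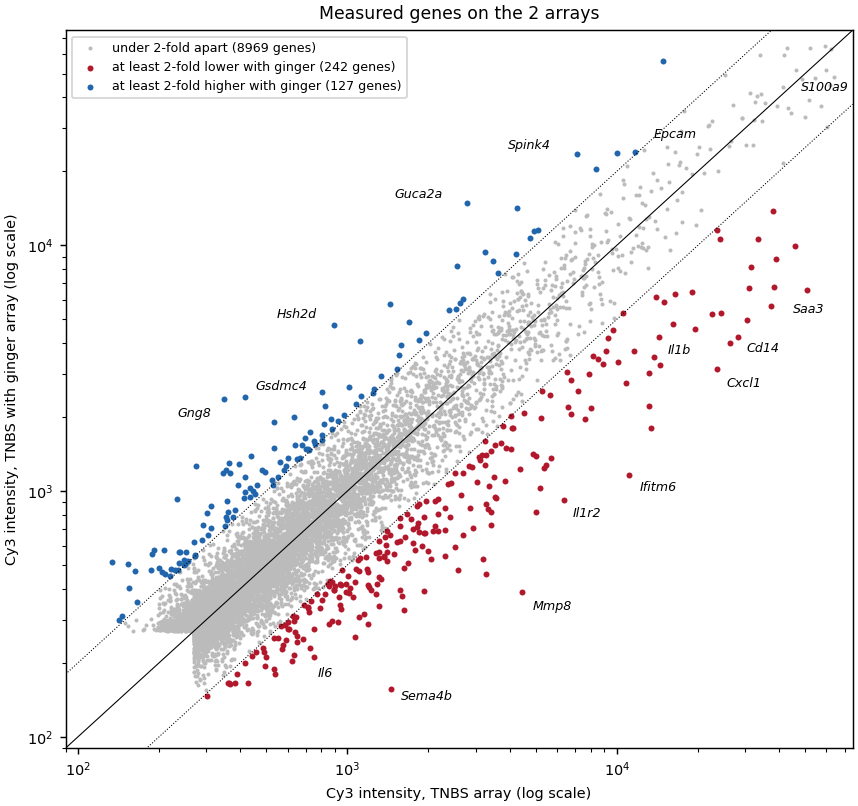
Cy3 intensity of each measured gene on the TNBS array (x) and on the TNBS with ginger array (y), both on log axes. The solid line marks equal values and dotted lines a 2-fold difference. The 242 lower genes (red) reach farther from the line than the 127 higher genes (blue), with Mmp8, Ifitm6 and Cxcl1 far below it and Guca2a and Gsdmc4 far above.

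The neutrophil-attracting chemokines were the gene group with the lowest median, in a list that also holds the receptor gene Cxcr2 and the platelet chemokine gene Pf4. Most of these chemokines are small ELR-type CXC proteins, made by epithelium, stroma and macrophages, that bind Cxcr2 and draw neutrophils out of the blood. Their genes Cxcl1, Cxcl2, Cxcl3 and Cxcl5 lie in 1 cluster, and NF-kB sites next to their start sites are textbook switches of their transcription. The matching stretches are shown for the 3 of these genes with a promoter in RefSeq's table (GRCm38.p6), because they are nearly alike in all 3. Each is read 5′ to 3′ on the gene's strand and the NF-kB consensus match is in capitals. The positions are chr5:90891139-90891218, plus strand for Cxcl1, chr5:90903767-90903846, plus strand for Cxcl2 and chr5:90785993-90786072, plus strand for Cxcl3.
Cxcl1: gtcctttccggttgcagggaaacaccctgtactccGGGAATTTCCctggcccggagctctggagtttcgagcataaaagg
Cxcl2: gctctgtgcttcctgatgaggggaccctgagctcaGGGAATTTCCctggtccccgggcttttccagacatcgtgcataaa
Cxcl3: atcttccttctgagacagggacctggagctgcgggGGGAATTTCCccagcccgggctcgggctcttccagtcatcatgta
The letters GGGAATTTCC begin 71, 97 and 73 bases before the start of Cxcl1, Cxcl2 and Cxcl3. The NF-kB consensus, searched on both strands, occurred within 250 bases before the start in 7.01% of 27025 genes with a promoter entry and in 8.73% of the 7515 measured genes with one. It occurred in 33 of 183 lower genes (18%) and in 4 of 102 higher genes (3.92%). A match is a description of letters and not a bound site.

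Cxcl1 had an intensity of 437 on the mock, 23605 on the TNBS, 3132 on the ginger and 1116 on the zingerone array, 7.54-fold lower with ginger than with TNBS alone. The ginger value lay far below TNBS, above zingerone and well above mock. From here on, intensities of a gene are listed in the order mock, TNBS, ginger and zingerone. Cxcl5 read 301, 13394, 1798 and 1117 (7.45-fold lower). Cxcl3 read 168, 37402, 5666 and 3801 (6.6-fold lower). Cxcl2 read 487, 39029, 8788 and 6282 (4.44-fold lower). For these 4 genes the TNBS array was the highest and the ginger array the next highest. The receptor gene Cxcr2 differed by -0.93 and the platelet chemokine genes Pf4 and Ppbp by -0.72 and -0.15. In all, 4 of 7 measured members were lower, none was higher, and the median was -2.15, against 0.01 over all measured genes. On the ginger array the list still stood above mock, with a median of 2.58 (ginger minus mock), where TNBS minus mock was 5.47. These 2 medians and the main difference share arrays and are given side by side only.

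The remaining CXC family differed little. Cxcl13, which guides B cells into lymphoid follicles, read 769, 2413, 783 and 941 and was 3.08-fold lower. Cxcl14 (-0.82, the mean of probes at -1.38 and -0.27), the interferon-induced T cell attractant Cxcl10 (-0.53) and the stromal Cxcl12 (-0.51) stayed within 2-fold. The 10 measured members had a median of -0.17 with 1 lower and none higher.

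CC chemokines, which draw monocytes, eosinophils and lymphocytes, were lower in 6 of 16 members with none higher, at a median of -0.78. The monocyte attractants Ccl7 and Ccl2 read 238, 2574, 479.5 and 341 (5.37-fold lower) and 226, 1930.3, 392 and 296 (4.93-fold lower). On the ginger array both lay nearer to mock than to TNBS. Ccl4, also called MIP-1 beta, read 422, 22614, 5262 and 6198 (4.3-fold lower) and thus stayed far above mock. Ccl9 (2.99-fold), Ccl3 (2.84-fold) and the receptor gene Ccr1 (2.35-fold) were lower as well. Ccl20, Ccl24 and Ccl22 did not reach 2-fold (-0.99, -0.95 and -0.46), and Ccl5, a T cell attractant, was at 0.48.

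The series title names interleukin-1 beta, so the IL-1 family was read by role. The ligand gene Il1b read 719, 14299, 4222 and 3196 and was 3.39-fold lower. Its sister Il1a has 2 probes that disagreed: the brighter read 629.2 on TNBS and 213.8 on ginger (-1.56), and the other 230.8 and 200 (-0.21). The signalling receptor gene Il1r1 read 327, 1642, 650.3 and 588 (2.53-fold lower). The decoy receptor gene Il1r2, which neutrophils and macrophages shed to trap IL-1, read 233, 6347, 917 and 821 (6.92-fold lower). Ligand, receptor and decoy were thus all lower on the ginger array. The antagonist Il1rn read 854, 3153, 1746 and 1101 (-0.85). Irak3, a brake on the receptor's signal in macrophages, read 204, 1309, 341 and 321 (3.84-fold lower). Il33, an alarmin of stroma and endothelium, was at -0.97 and the adaptor gene Myd88 at -0.42. Il18, which healthy colon epithelium makes in store, was higher with ginger, at 2769, 495, 1190.4 and 1862 (2.41-fold higher), and Casp1, whose enzyme cuts both pro-IL-1 beta and pro-IL-18, was at 0.38. In sum 4 of 14 members were lower and 1 higher, with a median of -0.87, or -0.29 over all 21 on the array.

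In the IL-6 family and the colony-stimulating factors 5 of 9 measured members were lower and none higher, with a median of -1.28, or -0.24 over all 17 on the array. Csf3, which drives the making of neutrophils in bone marrow, read 189, 1624, 327 and 374 (4.97-fold lower). Il6 read 96, 755, 212 and 183 (3.56-fold lower) and so lay in a dim range, where the background that the deposited values seem to carry holds folds down. After an estimate of that background was subtracted (the 5th percentile of an array), Il6 differed by -2.82 in place of -1.83. Csf1, the macrophage growth factor, was 2.71-fold lower and the wound-associated Il11 2.43-fold lower. Socs3, the feedback inhibitor that STAT3 induces, read 1538, 7641, 1967 and 2427 (3.88-fold lower), so its ginger value stood near mock. Stat3 itself was at -0.08 and the shared receptor gene Il6st at -0.28.

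NF-kB is a family of transcription factors held in the cytosol by I-kB proteins until kinases mark those for destruction, and several of its inhibitors are themselves its target genes. Of the inhibitor genes, Nfkbia and Tnfaip3 were lower, as was the I-kB family gene Nfkbiz. Nfkbie (-0.37) and Cyld (-0.03) stayed within 2-fold. The list members Bcl3 (-0.33) and Birc3 (-0.11) did so too. Nfkbia (I-kB alpha) read 2475, 13116, 3021 and 2249 (4.34-fold lower), Tnfaip3 (A20, a ubiquitin-editing enzyme) 542, 3326, 848 and 777 (3.92-fold lower) and Nfkbiz (I-kB zeta) 651, 3565, 936 and 697 (3.81-fold lower). The ginger value of all 3 lay above mock by less than 2-fold. The subunit gene Nfkb2 read 1174, 4129, 1803 and 1345 (2.29-fold lower). The other subunit genes Rela (-0.21), Nfkb1 (-0.26) and Relb (-0.26) and the kinase gene Ikbkb (-0.04) stayed close to the TNBS value. The list had 4 of 14 members lower and none higher, with a median of -0.30. The NF-kB consensus stood within 250 bases before the start in 5 of 10 list members with a promoter entry. The stretches of Nfkbia (chr12:55492648-55492727, minus strand) and Nfkb2 (chr19:46304657-46304736, plus strand) are shown because both genes are lower members of this list, in the same format as above. Nfkb2 holds a pair of matches.
Nfkbia: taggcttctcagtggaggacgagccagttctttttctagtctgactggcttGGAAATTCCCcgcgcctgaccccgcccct
Nfkb2: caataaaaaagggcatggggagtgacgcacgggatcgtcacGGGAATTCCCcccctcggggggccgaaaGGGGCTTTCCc
In the TNF superfamily none of 14 measured members was 2-fold apart and the median was -0.35, or -0.17 over all 19 on the array. Tnf read 370, 624, 455 and 367 (-0.46). Its receptor gene Tnfrsf1a read 2407, 3754, 2619 and 2175 (-0.52). The arrays give transcript levels, and NF-kB binding or activity is not part of these values.

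**Figure D2:**
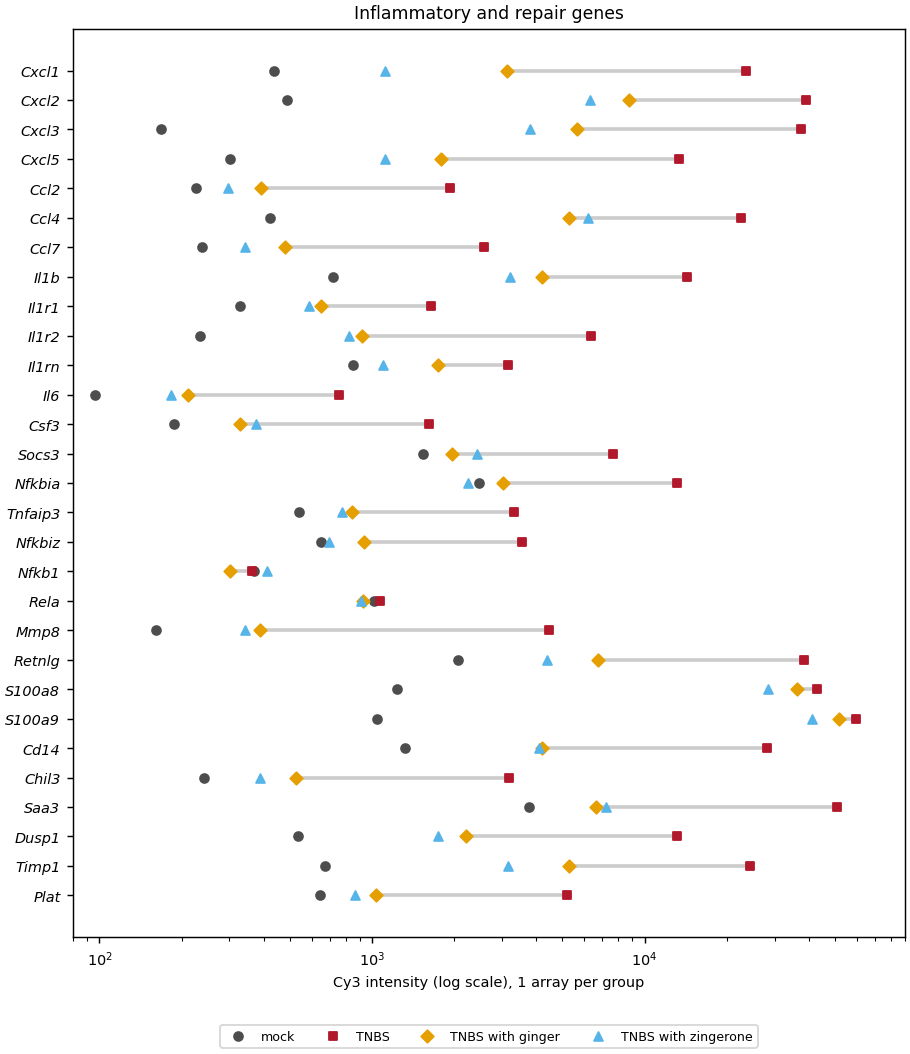
Cy3 intensity (log axis) of inflammatory and repair genes on the mock (circle), TNBS (square), ginger (diamond) and zingerone (triangle) arrays, with a grey bar from TNBS to ginger. For most genes ginger and zingerone lie together between mock and TNBS, whereas S100a8 and S100a9 stay near TNBS and Rela and Nfkb1 differ little between arrays.

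Neutrophil genes were unevenly lower on the ginger array. Mmp8, the collagenase stored in neutrophil granules, read 162, 4446, 388 and 342 and had the largest decrease of all measured genes, 11.5-fold. Ifitm6 read 244, 11084, 1163 and 1009 (9.53-fold lower). Slfn4, a myeloid Schlafen gene, read 617, 3274, 462 and 507 (7.09-fold lower). Wfdc21, a secreted whey acidic protein, read 377, 26364, 4013 and 3263 (6.57-fold lower). Slfn4 thereby lay under its mock value on ginger and zingerone. The resistin-like gene Retnlg was 5.68-fold lower. The siderophore-binding Lcn2 read 290.3, 31579, 8152 and 7699.8 (3.87-fold lower). The gelatinase gene Mmp9 read 265, 2171, 691 and 498 (3.14-fold lower), and Fpr2, Stfa1 and the lactoferrin gene Ltf were 3.03-fold, 2.93-fold and 2.3-fold lower. S100a8 and S100a9, the calprotectin subunits that make up much of a neutrophil's cytosol, stayed high at 1234, 43027, 36266 and 28462 (-0.25) and 1046, 59656, 51922 and 41248 (-0.20). The highest intensity of the deposited scale is 64634. The surface genes Fpr1 (-0.68) and Itgam (-0.16) also missed 2-fold. In all 10 of 16 members were lower, none was higher, and the median was -1.58. None of the 14 list members with a promoter entry held the NF-kB consensus. The summed intensity of its 20 genes on the array was 11716, 230788, 115485 and 93460, much of it from the S100 genes.

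Monocyte and macrophage genes were unevenly lower. Cd14, the lipopolysaccharide co-receptor, read 1322, 28071, 4222 and 4097 (6.65-fold lower). Chil3, a chitinase-like protein of activated macrophages and neutrophils, read 241, 3191, 527 and 387 (6.05-fold lower). The lectin receptor gene Clec4d (3.58-fold), the Fc receptor genes Fcgr3 (3.19-fold) and Fcgr4 (3.17-fold), and the adaptor chain genes Tyrobp (2.82-fold) and Fcer1g (2.18-fold) were lower too. Arg1 lay just past 2-fold at 313, 956, 477 and 322. Other macrophage genes, named after their values were seen, were not 2-fold apart: Csf1r was at -0.15, Adgre1 (F4/80) at -0.28, Mrc1 at 0.09, C1qa at 0.07 and Lyz2 at 0.57. The list had 8 of 21 members lower and none higher, with a median of -0.63, and the summed intensity of its 27 genes on the array was 11612, 61098, 19007 and 17330. Other myeloid genes outside any list were lower by similar amounts. The proteoglycan gene Srgn, which packs granule contents, read 1277, 30878, 6729 and 5189.5, the transcription factor gene Cebpb 984, 19442, 4547 and 3868, and Acod1, whose enzyme makes itaconate in activated macrophages, 315, 10858, 2745 and 1849, which are 4.59-fold, 4.28-fold and 3.96-fold lower. Bst1 (4.28-fold) and Lilrb4a (4.69-fold, mean of 3 probes) behaved alike.

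Lymphoid genes lay near the TNBS value. None of 7 measured T and NK cell markers was 2-fold apart (median -0.08, or 0.06 over all 15 on the array), with Cd3g at 0.43, Zap70 at 0.49 and Thy1, which stromal cells also express, at -0.70. Of 9 B and plasma cell genes 8 lay above the TNBS value (median 0.27). Jchain, the joining chain of IgA polymers, read 4924, 1799, 2948 and 3834 (0.71). Mzb1 read 674, 256, 412 and 551 (0.69). Cd79b read 587, 286, 411 and 425 (0.52). The member past 2-fold in this list was Pigr, the epithelial receptor that carries IgA into the lumen, at 2977, 302, 814 and 793 (2.69-fold higher). It remained well under mock on both treated arrays. The 6 MHC class II genes had a median of 0.29 with none past 2-fold, and Cd74, the invariant chain, was at 0.79. Among 3 measured mast cell and eosinophil genes the eosinophil peroxidase gene Epx read 158, 163, 474 and 139.5 (2.92-fold higher), bright on the ginger array alone, whereas the eosinophil granule gene Prg2 was at 0.12 and the mast cell tryptase gene Tpsab1 at 0.06.

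Interferon-stimulated genes were below the TNBS value in 20 of 24 cases, with a median of -0.33, but only 2 passed 2-fold. Tetherin, encoded by Bst2, holds budding viruses at the membrane, and Bst2 read 1691, 3247, 1273 and 1504 (2.55-fold lower). Isg15, a ubiquitin-like modifier, read 1067, 719, 321 and 435 (2.24-fold lower), and Rsad2 (viperin) 701, 1164, 590.3 and 664 (-0.98). Isg15 and Ifi44, which read 949, 345, 179 and 375 (-0.95), were lower on the ginger array than on any other, mock included. Irf7 was at -0.65, Ifit3 at -0.58, Irf1 at -0.14 and Oas2 at 0.03. The core of the interferon-stimulated response element, the letters GAAA, any 2 bases and GAAA again on either strand, stood within 250 bases before the start in 10 of 18 list members with a promoter entry (55.6%), against 3.04% of all 27025 genes and 11 of 183 lower genes (6.01%). The stretches of Isg15 (chr4:156200852-156200931, minus strand) and Bst2 (chr8:71537558-71537637, minus strand) are shown because these 2 are the members past 2-fold, with the core matches in capitals. Matches overlap each other in both genes, and none overlaps an NF-kB match.
Isg15: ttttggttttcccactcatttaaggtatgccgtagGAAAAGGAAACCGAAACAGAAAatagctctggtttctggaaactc
Bst2: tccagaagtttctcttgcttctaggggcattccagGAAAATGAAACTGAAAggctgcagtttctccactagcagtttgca

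Immediate early genes, which respond within minutes to growth factors, cytokines and handling of tissue, were lower in 6 of 22 members (median -0.65) and higher in none. Dusp1, a phosphatase that switches off p38 and JNK, read 533, 13198, 2209 and 1749 (5.97-fold lower). Gadd45b read 359, 5349, 1241 and 1074 (4.31-fold lower). The Krüppel-like factor gene Klf2 read 639.8, 5683, 1359.5 and 1132 (4.18-fold lower). The orphan receptor gene Nr4a1 read 272, 2305, 693 and 562 (3.32-fold lower). Ier3 (2.6-fold) and Zfp36, whose protein clears cytokine mRNA (2.5-fold), completed the 6. The AP-1 genes did not reach 2-fold: Fos was at -0.47, Jun at -0.28, Junb at -0.98 and Atf3 at -0.46, and Egr1 was at -0.63. Dusp1 carries a full cyclic AMP response element, TGACGTCA, a palindrome found within 250 bases before the start of 1.62% of all genes and of 2 of 18 list members. It is shown in capitals at chr17:26508572-26508651, minus strand, as the gene with the largest difference in the list.
Dusp1: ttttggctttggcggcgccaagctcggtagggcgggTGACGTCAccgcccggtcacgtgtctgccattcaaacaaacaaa

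Eicosanoid genes differed both ways. Alox5ap, the protein that hands arachidonate to 5-lipoxygenase, read 435, 5029.8, 826 and 844 (6.09-fold lower). Ptgs2 (cyclooxygenase-2), the inducible prostaglandin synthase, was lower by both of its probes, which read 483.2 and 875 on TNBS and 229 and 258 on ginger (-1.08 and -1.76). The prostacyclin synthase gene Ptgis was 2.24-fold lower, Ptgs1 was at -0.30 and Ptges at 0.00. In the other direction, Hpgd, whose enzyme inactivates prostaglandins in colon epithelium, read 1748, 362, 1304 and 1828 (3.6-fold higher), with both probes past 3-fold (1.96 and 1.73 on the log2 scale). Pla2g2a, a secreted phospholipase of gut epithelium, read 3821, 1111, 4099 and 4905 (3.69-fold higher). Over the 10 measured members 2 were higher and 3 lower, and the median was -0.20, or -0.04 over all 16 on the array.

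Tissue breakdown and repair was read through proteases, coagulation genes and matrix genes. Of 13 matrix proteases and inhibitors 5 were lower (median -0.81, or -0.41 over all 15 on the array) and all 13 lay below the TNBS value. Timp1, the inhibitor of many matrix metalloproteinases, read 674, 24360, 5296 and 3168 (4.6-fold lower). Adamts4, an aggrecan-cleaving protease, read 194, 1676, 511 and 453 (3.28-fold lower). Mmp10 was 2.88-fold lower, whereas Mmp3 (-0.87), Mmp13 (-0.17) and Mmp2 (-0.07) were not 2-fold apart. Plasminogen and coagulation genes had 7 of 12 members lower, none higher and 11 below the TNBS value. The tissue plasminogen activator gene Plat read 645, 5189.5, 1032 and 866 (5.03-fold lower). The thrombomodulin gene Thbd read 362, 2924, 706 and 606 (4.14-fold lower). The factor X gene F10 read 237, 2049, 529.5 and 423 (3.87-fold lower). The urokinase receptor gene Plaur read 379, 8043, 2176 and 1347 (3.7-fold lower). The endothelial protein C receptor gene Procr was 3.13-fold lower, and F13a1 and F3 (tissue factor) lay just past the threshold, from 627 to 312 and from 10576 to 5282 between TNBS and ginger. These genes act both for and against clotting.

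In the matrix itself 5 of 21 genes were lower (median -0.39, or -0.24 over all 25 on the array). Osteopontin (Spp1) read 176, 2692, 661 and 483 (4.07-fold lower). The tenascin gene Tnc, for a glycoprotein of healing wounds, read 396, 1790.3, 575 and 490.3 (3.12-fold lower). The basement membrane collagens Col4a1 (602, 2644, 961 and 1003) and Col4a2 (1955, 6773, 2838 and 2948), which share a promoter region and a heterotrimer, were 2.75-fold and 2.39-fold lower. The fibrillar collagens Col1a1 (-0.12), Col1a2 (-0.02) and Col3a1 (-0.36) stayed near the TNBS value. The matricellular gene Ccn2, a transforming growth factor beta target outside these lists, read 491, 5439.5, 1273 and 1410.3 (4.27-fold lower). Among 10 fibroblast and pericyte markers Vim read 3388, 18999, 6446 and 5140.3 (2.95-fold lower). Pdpn, podoplanin of lymphatics and activated stroma, read 693, 3408, 1451 and 1464 (2.35-fold lower), with all 10 below the TNBS value (median -0.56). Of 11 endothelial markers 1 was lower, the lymphatic receptor gene Lyve1 at 339, 944, 417 and 485 (2.27-fold lower), and the pan-endothelial Pecam1 (-0.43) and Cdh5 (-0.25) were not 2-fold apart. The leukocyte adhesion genes Icam1 and Vcam1 were at -0.79 and -0.73. The brighter Vcam1 probe read 1946 on TNBS and 836.5 on ginger (-1.22), and the other, dim on all arrays, differed by -0.24.

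Fat-cell genes also differed. Fabp4, the adipocyte fatty acid carrier also found in macrophages and capillaries, read 4159.5, 45906, 9969 and 19855 (4.6-fold lower). Adipsin (Cfd) read 4376, 16128, 4804 and 6871 (3.36-fold lower) and leptin (Lep) 144, 383, 166 and 289 (2.31-fold lower). Cidec, a lipid droplet protein, read 347, 823, 381 and 617 (2.16-fold lower). Adiponectin (Adipoq) was at -0.58. Pparg (0.66), Slc2a4 (0.45) and Pnpla2 (0.07) lay above the TNBS value and the other measured members below it. The 14 members had 4 lower and a median of -0.61. The summed intensity of all 16 on the array was 16207, 71473, 22215 and 35536, much of it from Fabp4 and Cfd. Fat lies on the outer colon wall, and its part in the differences of the other lists was not tested. Smooth muscle contractile genes had a median of -0.02, and none of 14 was past 2-fold. They went both ways, with Smtn at 0.92, Des at -0.85 and Lmod1 at 0.74, while Myh11 was at -0.04 and Actg2 at 0.10. All 8 measured enteric neuron and glia markers lay below the TNBS value by less than 2-fold, with a median of -0.24, for example Gap43 at -0.60 and Vip at -0.39.

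The lists with the most higher genes were those of absorptive colonocytes and goblet cells. Absorptive colonocytes sit at the crypt mouth and the surface, where they exchange chloride for bicarbonate and absorb salt and water. Guca2a, which encodes the luminal peptide guanylin, read 20660, 2772, 14803 and 34596 (5.34-fold higher), and its neighbour Guca2b (uroguanylin) 2529, 1017, 2645 and 2502 (2.6-fold higher). Slc26a3, the chloride-bicarbonate exchanger mutated in congenital chloride diarrhoea, read 2377, 418, 1145 and 3704 (2.74-fold higher), which is still under mock and under zingerone. The carbonic anhydrase genes Car2 and Car4 read 10607, 2556, 8240 and 6954 (3.22-fold higher) and 7779, 968, 1915 and 2981 (0.98). Fabp2, an intracellular fatty acid carrier, read 1780, 397, 1287 and 1296 (3.24-fold higher). The colonic pentraxin Mptx1 read 4270.3, 188, 553 and 812 (2.94-fold higher). Mptx1 stayed far under mock, and as a dim probe on TNBS its difference grew from 1.55 to 2.71 with background subtracted. The sodium pump subunit Atp1b1 (2.26-fold) and the steroid dehydrogenase Hsd17b2 (2.08-fold) were higher as well. Cftr (0.97), Aqp8 (0.82) and Car1 (0.89) did not reach 2-fold, and the epithelial sodium channel genes Scnn1a (-0.24), Scnn1b (-0.05) and Scnn1g (-0.17) lay near the TNBS value. Emp1 was 2.29-fold lower. In all 8 of 28 members were higher and 1 lower, with a median of 0.57, or 0.32 over all 33 on the array. Over the 5 absorptive markers Car1, Car4, Slc26a3, Aqp8 and Guca2a the summed intensity was 32821, 5364, 20017 and 43998. Much of this sum came from Guca2a on every array.

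Goblet cells make the mucus layer, and their genes had the highest median of all 53 lists, 0.81. Of 18 measured members 17 lay above the TNBS value, 6 were higher and none was lower. Atoh1, the transcription factor that commits a progenitor to the secretory lineage, read 1120.1, 393, 1062 and 945 (2.7-fold higher), so ginger stood next to mock. Creb3l4 read 888, 239.8, 568 and 586 (2.37-fold higher), and Foxa3 was 2.04-fold higher. Of the other members, Spink4 read 33939.5, 7105, 23447 and 24360 (3.3-fold higher). The tryptase-like Tpsg1 read 1575, 346, 1187 and 1161 (3.43-fold higher) and kallikrein Klk1 was 2.37-fold higher. The trefoil peptide Tff3 read 64237, 33939.5, 59389.7 and 64634 (0.81), with mock, ginger and zingerone all near the top of the scale. The mucin gene Muc2 has 4 probes. The brightest had 9640, 3420, 9446 and 6773 (2.76-fold higher with ginger). The other 3 never exceeded 389.8 and were not 2-fold apart. Agr2, which folds mucins, was at 0.97 and Ern2, a stress sensor of mucus-making epithelium, read 715, 359, 763 and 687 (2.13-fold higher). Zg16, a lectin that keeps bacteria off the epithelium, was the exception at 51922, 50081, 33341 and 59656 (-0.59). Near the named lists, the regenerating gene Reg4, made by deep crypt secretory cells, read 8165, 1443, 5744 and 7367 (3.98-fold higher). Sval1 read 22218, 4267, 14194 and 14483 (3.33-fold higher). The kallikrein gene Klk1b5 read 7017, 1691, 4887 and 4949.8 (2.89-fold higher). Kallikrein genes are near-identical copies, so their probes may share signal.

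**Figure D3:**
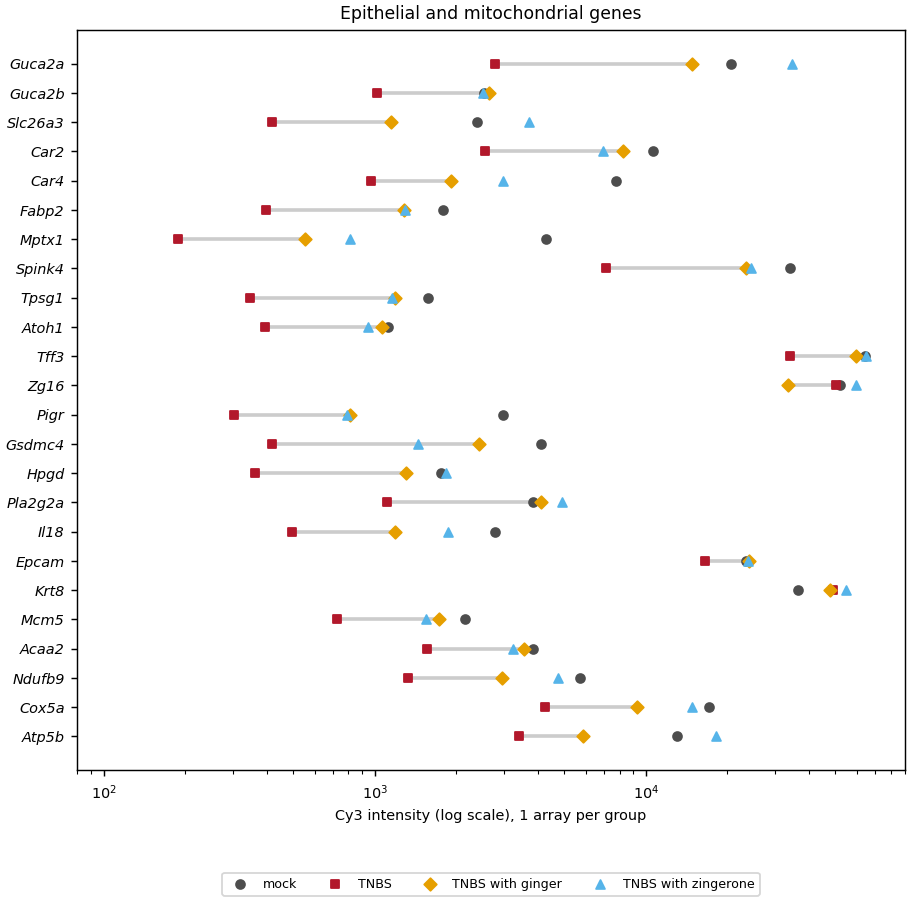
Cy3 intensity (log axis) of epithelial and mitochondrial genes on the mock (circle), TNBS (square), ginger (diamond) and zingerone (triangle) arrays, with a grey bar from TNBS to ginger. For nearly all genes shown TNBS is the lowest point and ginger lies to its right, with Zg16 and Krt8 as exceptions.

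Gsdmc4, a gene of the gasdermin C family, had the second largest increase of all measured genes at 4101, 417, 2414 and 1446 (5.8-fold higher). Gasdermin C genes form a cluster of near-identical copies, and the 3 probes of Gsdmc disagreed. The brightest on ginger read 127.5 on TNBS and 628.1 on ginger (2.30), and the other 2, dim on all arrays, differed by 0.10 and 0.22. Gsdmd, the pore of inflammatory cell death, was at 0.02, and Casp4, a cytosolic lipopolysaccharide sensor, read 522, 601, 274 and 302 (2.19-fold lower). Mlkl and Ripk3 of the necroptosis pathway were at -0.58 and -0.48.

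Defence proteins of the epithelium split. The acute phase genes Saa3 (3761, 50859, 6609.8 and 7209.8) and Hp, haptoglobin (1195, 30534, 4949.8 and 8544), were 7.69-fold and 6.17-fold lower. Lrg1 (2.71-fold), the iron hormone gene Hamp (2.95-fold) and the lectin gene Reg3g (3.65-fold) were lower too, together with Lcn2 above. Pla2g2a and Pigr were the higher members. The mucosal scavenger receptor gene Dmbt1, outside the list, read 14577, 2609.8, 5831 and 9768 (2.23-fold higher). Over 13 members 6 were lower and 2 higher, with a median of -0.41, or -0.17 over all 16 on the array.

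Junction genes were above the TNBS value in 16 of 20 cases (median 0.30), yet none passed 2-fold. The claudin genes spread the widest. Cldn8, a sealing claudin, read 844, 257, 508 and 1085 (0.99). Cldn15 read 984, 813, 1549.8 and 2036 (0.93). The pore-forming Cldn2 read 1243, 738, 1324 and 1593 (0.84, mean of 2 probes). In contrast Cldn4 was below TNBS and read 1219, 4423, 2495 and 2481 (-0.83). Tjp1 (0.01) and Ocln (-0.08) lay near the TNBS value. Keratin and wound-edge genes had 3 of 17 members lower (median -0.33, or -0.20 over all 20 on the array). Besides Plaur these were Sprr2h, a cornified envelope protein, at 187, 1996, 572 and 344 (3.49-fold lower) and annexin A1 (Anxa1) at 6250, 37843, 13791 and 12843 (2.74-fold lower). Krt8, Krt18 and Krt19 were at -0.04, 0.18 and 0.53.

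Crypt genes lay on both sides of the TNBS value and most proliferation genes above it. Cdca7 read 783, 238, 511 and 869.5 (2.15-fold higher), and the stem cell genes Smoc2 and Ascl2 were at 0.80 and 0.55, Axin2 at 0.07 and Sox9 at -0.44. On the other side were the Wnt-list members Tgfbi, a secreted matrix protein, at 847, 3598, 1846 and 1442 (-0.96) and the hyaluronan receptor gene Cd44 at -0.76 (mean of 3 probes). The Cd44 probes disagreed: the brightest read 5128 on TNBS and 1236 on ginger (-2.05), and the others, dim on all arrays, differed by -0.17 and -0.06. The 15 crypt and Wnt genes had a median of 0.09, a value whose sign turned to -0.22 when dim genes were left out. The colonic transcription factor gene Cdx1 read 803, 456, 974 and 1091 and the progenitor factor gene Myb 1145, 359, 913 and 949, both outside the lists and 2.14-fold and 2.54-fold higher. Of 22 replication and mitosis genes 21 lay above the TNBS value (median 0.39). Mcm5, a subunit of the replicative helicase, read 2151, 724, 1733 and 1549 (2.39-fold higher). Mcm6 (0.90), Plk1 (0.93), Ccna2 (0.83) and Mki67 (0.38, mean of 3 probes) stayed under 2-fold. That compares with 51.4% of all measured genes. Enteroendocrine genes did not reach 2-fold in any of 13 cases (median 0.12), with Insl5 at 0.63, Sst at 0.58 and the serotonin-synthesis gene Tph1 at -0.65.

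Most mitochondrial genes lay above the TNBS value by less than 2-fold. Colonocytes draw most of their energy from oxidation of bacterial butyrate, which runs through beta-oxidation, the TCA cycle and the respiratory chain. All 40 of 40 measured respiratory chain and ATP synthase genes lay above the TNBS value, with a median of 0.49, although only 2 passed 2-fold. The complex I subunit gene Ndufb9 read 5724, 1332, 2949 and 4741 (2.21-fold higher). The cytochrome c oxidase gene Cox5a read 17079, 4237, 9253 and 14803 (2.18-fold higher). Both remained under mock. By complex the medians were 0.47 for the 16 genes of complex I, 0.29 for the 4 of complex II, 0.47 for the 5 of complex III, 0.50 for the 7 of complex IV and 0.73 for the 8 of complex V. The beta subunit of the ATP synthase, Atp5b, read 13062, 3396, 5874 and 18134 (0.79). Its membrane ring gene Atp5g3 read 20752, 12603, 24360 and 28489.5 (0.95). The ginger array as a list was under mock, with a median of -0.51 (ginger minus mock), where TNBS minus mock was -0.90.

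Fatty acid oxidation genes were above TNBS in 19 of 20 cases (median 0.38). Acaa2, the thiolase that ends the beta-oxidation spiral, read 3832, 1555, 3562 and 3235 (2.29-fold higher), the carnitine carrier gene Slc25a20 was at 0.80, Ech1 at 0.73 and Cpt1a at 0.15. TCA cycle genes were above in 14 of 16 (median 0.46, or 0.30 over all 19 on the array; Mdh1 0.91, Fh1 0.71), and mitochondrial ribosome and import genes in 30 of 34 (median 0.27), of which Mrpl36 reached 2-fold at 2193, 529, 1058 and 1774. Cytosolic ribosomal proteins, of which only 10 were measured, had a median of 0.25 and proteasome subunits -0.09, with none past 2-fold among 10 and 31. The small, same-signed differences of the mitochondrial genes are within the SD of 0.33 between probes for some single genes, for example Ndufb8 at 0.07 and Sdhb at 0.08.

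**Figure D4:**
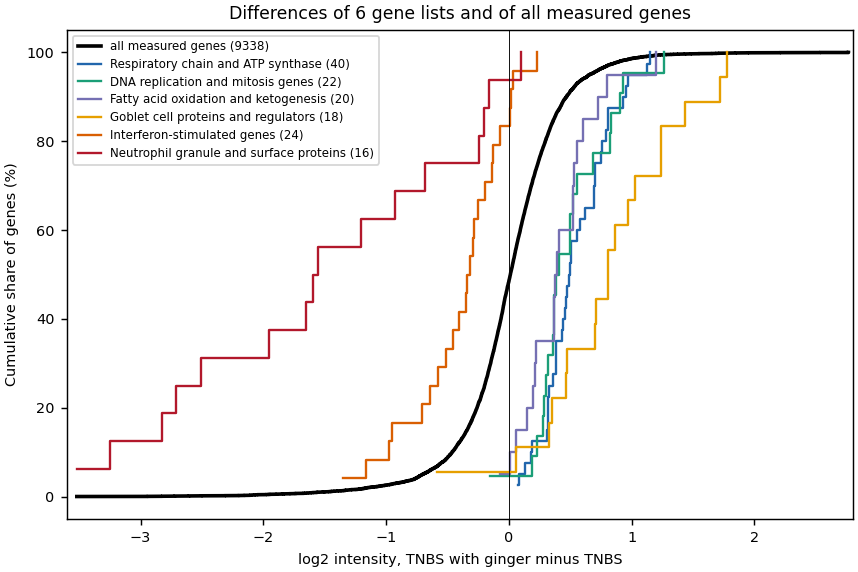
Cumulative share of genes (y, in percent) against the log2 difference of ginger minus TNBS (x) for 6 gene lists and for all 9338 measured genes (black). The neutrophil list lies far to the left and the interferon list slightly to the left of the black curve, and the respiratory chain, replication, fatty acid oxidation and goblet cell lists lie mostly to the right, the respiratory chain starting above 0.

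Hypoxia and glycolysis genes were lower in 2 of 21 cases (median -0.11). Pfkfb3, an activator of glycolysis, read 821, 3278, 883 and 914 (3.71-fold lower). Vegfa read 479.6, 1843, 887 and 714 (2.08-fold lower). Hif1a read 2351, 6699, 3568 and 5094 (-0.91), and the glycolytic enzymes Pgk1 (-0.10), Ldha (0.26) and Pfkl (0.77) were mixed. Cholesterol synthesis genes had none of 14 past 2-fold but 12 above the TNBS value (median 0.33). Fdps, which joins isoprenoid units, read 2597, 1187, 2295 and 2110 (0.95).

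Ginger phenols are conjugated and oxidised by enzymes of gut and liver, and electrophilic ones are known as NRF2 activators in cultured cells, so both gene groups were read. Xenobiotic genes were above TNBS in 18 of 22 cases (median 0.33, or 0.09 over all 32 on the array). The carboxylesterase gene Ces2a read 536, 236, 478 and 551 (2.02-fold higher). The cytochrome gene Cyp2d9 read 1341, 669, 1366 and 1157 (2.04-fold higher) and the xenobiotic receptor gene Nr1i2 (PXR) 436, 227, 421 and 389 (0.89). All 3 ginger values stood close to mock. NRF2 and heme response genes had a median of 0.03 with 2 of 21 lower and none higher. Of the lower members the manganese superoxide dismutase gene Sod2, also an NF-kB target, read 5929.8, 33501, 10576 and 7958 (3.17-fold lower). The heme oxygenase gene Hmox1 read 439, 1957, 909 and 688 (2.15-fold lower). The classical targets Nqo1 (0.30), Gclm (0.17), Srxn1 (0.17) and Txnrd1 (0.24) differed by less than the probe SD. Gpx2, the epithelial glutathione peroxidase gene, read 7629, 3855, 7678 and 9322 (0.99). Of the transient receptor potential channels, a family in which some members sense ginger's pungency, 4 were measured (Trpv2, Trpm6, Trpv5 and Trpv6). None of them was 2-fold apart. Trpv1 has no named probe here, and Trpa1 was too dim to be measured (170.25 on TNBS and 174.25 on ginger).

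Stress genes of the endoplasmic reticulum had few members apart (median -0.04, 1 of 26 higher and none lower). Besides Ern2, the amino acid response genes Asns (-0.84), Chac1 (-0.68) and Ddit3 (-0.49) were below TNBS and Hspa5 (BiP) was at -0.02. Among 8 cytosolic heat shock genes the small chaperone gene Cryab read 893, 11570.2, 3714 and 1484 (3.11-fold lower). The inducible Hspa1b read 503, 1026, 405 and 369 (2.53-fold lower), while the constitutive Hspa8 was at 0.52. Reference genes had a median of 0.08, or -0.08 over all 10 on the array, and B2m, which interferon and NF-kB induce, was at -0.93. Gapdh stayed under the median of named probes on every array and gives no level check.

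**Figure D5:**
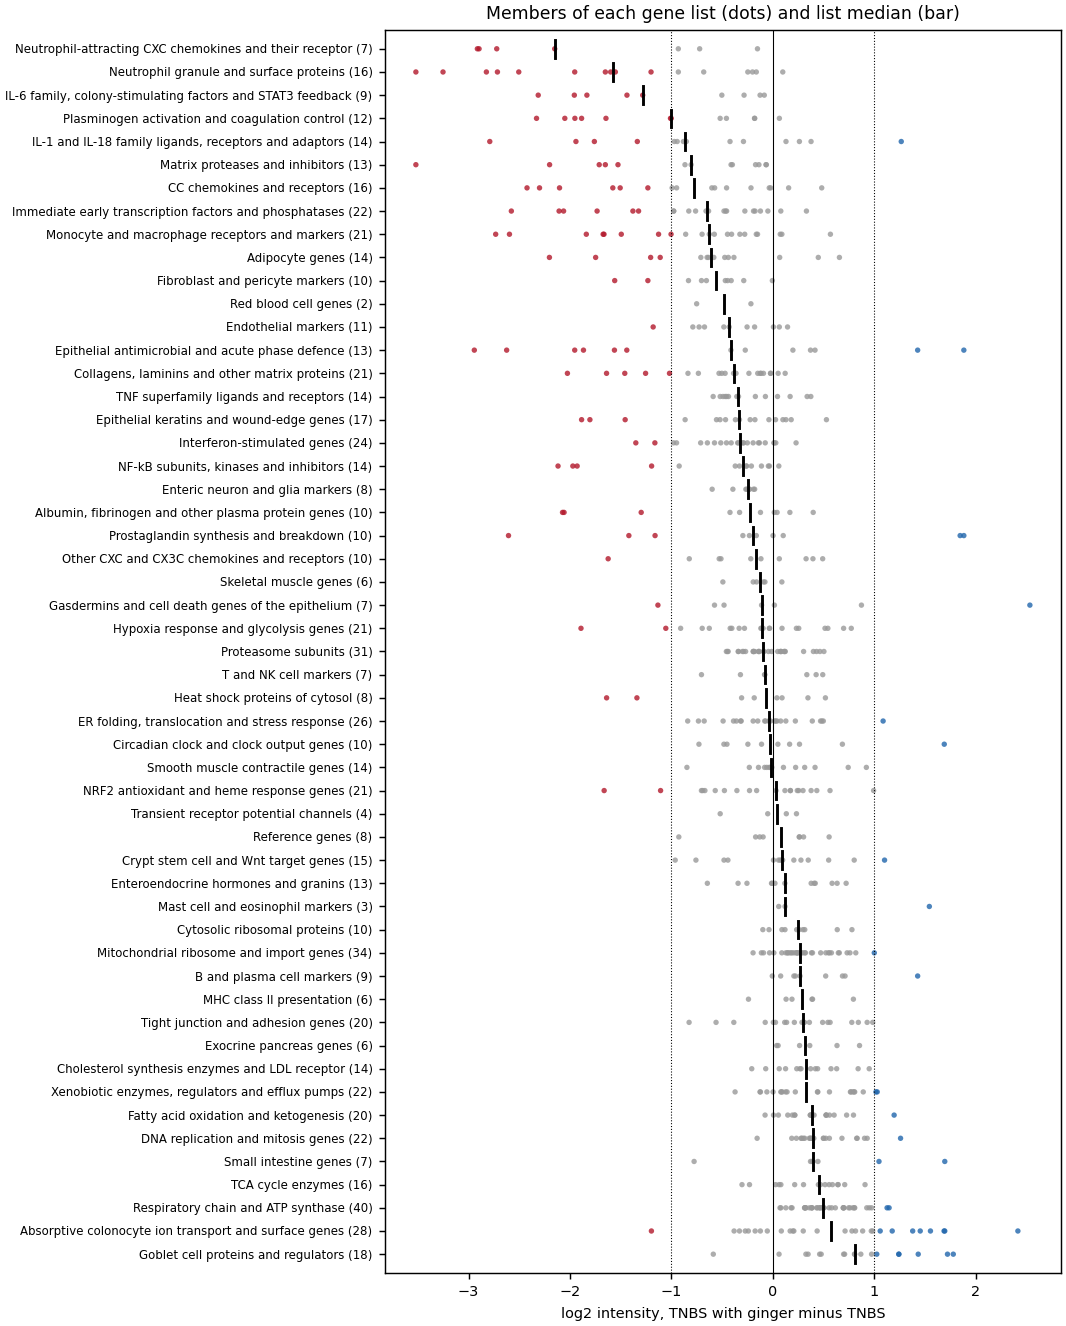
Log2 difference of ginger minus TNBS (x) for each measured member (dot) of 53 gene lists, sorted by list median (black bar), with the number of measured members in brackets. Red dots are at least 2-fold lower and blue dots at least 2-fold higher. Neutrophil-attracting chemokines stand at the top with a median of -2.15 and goblet cell genes at the bottom with 0.81.

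Set directly against zingerone, a single phenol of ginger given in the same way, the ginger array differed less. Of 9396 genes measured on either of these arrays 27 were at least 2-fold higher on ginger (0.287%) and 70 at least 2-fold higher on zingerone (0.745%). The doses are not known to match. Of the 242 genes lower than TNBS, 3 were 2-fold above and 2 were 2-fold below zingerone, and of the 127 higher genes 16 and 5. Both sets were chosen with the ginger array, so these counts are a description. Examples chosen after their values were seen follow. Among inflammatory genes Cxcl1 stood apart (3132 on ginger, 1116 on zingerone), as did the heat shock gene Cryab (3714 and 1484) and the complement gene C3 (3460.3 and 1512). In the epithelium, Slc26a3 was 1145 on ginger and 3704 on zingerone, Guca2a 14803 and 34596, and Atp5b 5874 and 18134. The ginger array lay between TNBS and zingerone for these 6 picked genes. Other genes went the other way, with ginger the lowest of these arrays for Ccl3 (1752 on TNBS, 617 on ginger and 1485.5 on zingerone) and Ifi44 (345, 179 and 375). Among the 127 higher genes, the 16 that were 2-fold above zingerone also lay beyond it.

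Some of the largest differences rest on 1 probe whose behaviour sets it apart. In all 26 probes that were bright on 1 of the 4 arrays alone were set aside, 7 on TNBS, 9 on ginger, 4 on mock and 6 on zingerone, and 16 further genes would pass 2-fold with them. Mesp1, at 5979 on ginger and 134 or less elsewhere, is 1 of these. Several genes that were kept look alike. Gng8, a G protein subunit gene and the largest increase, read 293, 349, 2373 and 278, Hsh2d, an adaptor of blood cells, 677, 893, 4736 and 545, and the macrophage folate receptor gene Folr2 205, 274, 1264 and 229.8. Rgs12 (245, 233, 930 and 218) and the bile acid carrier gene Slc10a1 (132, 134, 517 and 109.8) missed the 4-fold limit of the rule, and of 2 Zfp64 probes 1 read 9376 on ginger and the other 159.5. For these 6 genes the mock, TNBS and zingerone arrays lay together and the ginger array alone stood out. Sema4b was the reverse, at 1226, 1458, 156 and 98, bright on mock and TNBS and dim on both treated arrays. At the intensity filter, Adgre1 (269 on TNBS) was just in and Asxl1 (268.97) just out. At the 2-fold limit, Mrpl36 (529 to 1058 from TNBS to ginger) was in and Slc39a5 (254.2 to 507.2) out on the higher side, and F3 (10576 to 5282) in and Tnfaip2 (812.2 to 406.5) out on the lower.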

How the data were processed

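Total RNA of colon, 5 µg per array, was amplified and labelled with Cy3, per the labels. The deposited table gives, for each probe, the Cy3 intensity (linear, not log) of all 4 arrays. Per the submitters' processing notes limma was used. How the authors scanned, corrected and normalized these intensities is not given in the sources used here. In the deposited intensities the sorted values of the 4 arrays differ by at most 1.84%, the lowest is 74.25 and the highest 64634, so background seems to be included and folds of dim genes are understated. Depth has no counterpart here.

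Probe symbols came from the platform annotation. Through RefSeq synonyms (GRCm38.p6) 3410 were updated, 17558 were current and 52 kept, and 8902 of 29922 probes had none. Values were taken to log2 without a pseudocount. A probe was set aside if it reached the median of named probes on 1 array, was under it on the other 3, and was at least 4-fold above the highest of these. Probes of a gene were then averaged, and genes at least 2-fold apart were called. No test was run.

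The comparison, the 53 gene lists and the rule for named genes were chosen with earlier results of these data known. The rule takes the 15 largest increases and decreases, skipping predicted genes, clones and odorant or pheromone receptors, the 4 members of each list with the largest difference, and a fixed set of genes. Other list members, the cell type markers, and genes outside the lists were named after their values were seen. Motifs were searched in the 250 bases before the first listed start in RefSeq's promoter table. Alternatives changed the scaling, background, filter, handling of probes and fold. The steps were checked on simulated data. Python 3.11.15, numpy 2.4.6 and pandas 2.3.3 were used.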

Additional observations from a re-analysis of the deposited data

How the results depend on the processing

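The counts of 127 higher and 242 lower genes held within 1.5 times in 8 alternatives: medians made equal, quantiles made equal, dim values raised to the 25th percentile, all genes kept, genes under the 75th percentile dropped, a gene read by its brightest probe, and probes bright on 1 array alone either kept or set aside by a wider rule. Making medians or quantiles equal could hardly change the counts, because the sorted values of the deposited arrays already differ by at most 1.84%. After subtraction of an array's 5th percentile the counts became 294 higher and 407 lower, and all 127 and 242 genes stayed among them. With 1.5-fold in place of 2-fold there were 592 and 637, and with 3-fold 24 and 84. Only 1993 measured genes have several probes, and 352 of the 369 called genes have 1 probe and could not enter this alternative. Among genes with several probes, requiring every probe to differ the same way left 6 higher and 10 lower. The median of the crypt stem cell and Wnt list reversed from 0.09 to -0.22 when genes under the 75th percentile were dropped, where fewer genes enter. The medians of the NRF2 list (0.03 to -0.16) and the transient receptor potential list (0.04 to -0.19) also changed sign there. Those of the T and NK cell, circadian and reference lists changed sign under at least 1 alternative. Of 477 list medians under the alternatives 466 kept their sign but 86 moved by more than the SD between probes over the square root of the member number, and with all genes kept 16 of 53 lay over 1.5 times and at least 0.1 away (IL-6 family -1.28 to -0.24, IL-1 family -0.87 to -0.29), while of 1599 differences of named genes 1597 kept theirs. No paired analysis was possible because each group has 1 array.

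What these values cannot show is variation between animals: 1 array per group, of unstated pooling, gives no error. Background that seems to be included shrinks folds of dim genes, and the highest intensity on any array is 64634. Most called genes, 352 of 369, rest on 1 probe.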

Other observations

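Of the plasma protein genes that liver makes in bulk, 3 were lower with ginger. Alb, the albumin gene, read 3566, 3412, 819 and 553 in the order mock, TNBS, ginger and zingerone, and Fgb, the fibrinogen beta chain gene, read 833, 1072, 255 and 189. Both were thus as bright on mock as on TNBS and at least 4-fold dimmer with ginger (4.17-fold and 4.21-fold). C3, a complement gene that gut epithelium and macrophages also express, read 2847, 8509, 3460.2 and 1512. The other members gave no such difference, with Ttr at -0.12, Apoa2 at 0.01 and Hpx at 0.04, and the list of 10 had 3 lower genes and a median of -0.22.

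Of the circadian genes, the output factor Dbp read 2670.2, 368, 1187 and 1613 (3.23-fold higher with ginger than with TNBS). Tef was at 0.69 and Nfil3, the repressor that acts against both on shared promoter elements, at -0.73. The core clock genes Clock (0.05), Per2 (-0.25) and Cry1 (-0.45) lay within 2-fold, and the 10 measured members had a median of -0.03. The hour at which colons were taken is not in the labels.

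Further genes outside the lists, named after their values were seen, include the dicarboxylate carrier Slc13a2, which read 2191, 438, 1393 and 1318, and the potassium channel subunit Kcne3, which read 1315, 292, 731 and 1208. The selenium carrier Selenop read 13149.5, 4778, 10663 and 7524. The acute phase inhibitor Serpina3n read 2729.5, 14466, 3251 and 4458. Ddx41 read 63293, 14803, 56086 and 26364. Medag read 8597, 1053, 371 and 472, so its ginger value lay below TNBS, which itself lay far below mock. Usp3 read 1048, 755, 275 and 661 and was dim on the ginger array alone.

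Of the 242 lower genes 149 belong to none of the 53 lists, and of the 127 higher genes 96 do not. The share of all measured genes outside the lists is not given here, so these counts are a description. Among 2868 probes without a symbol that reached the median of named probes on the TNBS or the ginger array, 48 were at least 2-fold higher and 60 at least 2-fold lower with ginger. Of the 9338 measured named genes 127 were higher and 242 lower.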
